A study of Mus musculus with 2 samples.

Results

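This account describes 10 mouse genes of insulin-like growth factor (IGF) and insulin signalling, chosen by symbol: the IGF binding protein genes Igfbp2, Igfbp3, Igfbp4, Igfbp5, Igfbp6 and Igfbp7, the receptor genes Igf1r and Insr, and the receptor substrate genes Irs1 and Irs2. All 10 were found among 22383 genes in the table. The values come from 2 RNA sequencing libraries of iHFSC2, an immortalized line of hair follicle stem cells from the mouse, with 1 library per group. The shcircSmad5 library was made from iHFSC2 cells that carry a lentivirus (pwslv-shcircSmad5) whose hairpin targets circSmad5, a circular RNA from the Smad5 gene, and the empty vector library from iHFSC2 cells infected with a lentivirus without the hairpin. Both cultures were infected, put under puromycin from day 4 and used as stable lines at day 15. The control carried no hairpin of another sequence. Effects of losing circSmad5, of expressing any hairpin and of separate selection of the lines therefore cannot be told apart. No difference below has a replicate check, so no p-value is given, and each interval is a 95% interval of counting error only.

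IGF-1 and IGF-2 act on cells through the IGF-1 receptor, a tyrosine kinase closely related to the insulin receptor, and both receptors pass their signal on by phosphorylating the docking proteins IRS-1 and IRS-2, which recruit PI3 kinase and so switch on Akt. The IGF binding proteins are secreted. They hold IGFs in the extracellular space, and by holding or releasing them they either restrain or prolong receptor activation. In skin, dermal cells are a main source of IGF-1, and keratinocytes and follicle epithelium carry the receptor.

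The libraries held 38382081 counts in shcircSmad5 and 39261010 counts in empty vector. Ratios are shcircSmad5 over empty vector after TMM scaling, which corrects each total for a few genes that take many counts. A gene counted as measured from 20 counts upwards in either library, and it was called higher or lower if its ratio was at least 2-fold and its counting interval excluded 1. Of 13596 measured genes, 8.43% were called higher and 6.24% lower. Among protein-coding genes alone, the class of all 10 members, those shares were 4.61% of 11605 and 6.38%. Smad5 itself, counted without telling its circular from its linear RNA, had 3413 counts in shcircSmad5 and 3109 in empty vector, a log2 ratio of 0.10 (0.03 to 0.18). All 7 basal keratinocyte markers listed were present, with summed levels of 16752 CPM, counts divided by the scaled library total, in shcircSmad5 and 15287 CPM in empty vector. None of the 7 was called, and they went both ways. Krt14, Krt5 and Col17a1 had log2 ratios of 0.45, 0.09 and 0.09. Itgb4, Trp63, Lamb3 and Itga6 had log2 ratios of -0.06, -0.36, -0.49 and -0.53. The 6 hair follicle stem cell markers in the table were uneven: Sox9 had 5301 counts in shcircSmad5 and 8829 in empty vector, while Lhx2 had 5 and 4 in the same order and Cd34 had 0 in both. Krt15, a bulge keratin gene and the only one of the 6 that was called, had 79 counts in shcircSmad5 and 253 in empty vector, 3.27-fold lower (2.53 to 4.26). Nfatc1 and Tcf7l1 had log2 ratios of -0.18 and 0.01. The 4 immune markers in the table summed to 5.74 CPM in shcircSmad5 and 6.69 CPM in empty vector. Cd68 alone had 5.74 CPM and 6.48 CPM in the same order. Itgam and Lyz2 had 0 counts in both libraries, and Cd3e had 0 in shcircSmad5 and 8 in empty vector. Of 6 melanocyte markers listed, the 2 in the table, Pmel and Mlana, summed to 0.816 CPM in shcircSmad5 and 0.625 CPM in empty vector.

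In the shcircSmad5 library, Igfbp2 was 2.25-fold higher, Irs1 was 4.38-fold lower and Igfbp7 was 1.88-fold lower, the last of these short of the 2-fold limit. Igfbp3, the most abundant member, and the genes Igf1r, Insr and Irs2 differed by at most 1.20-fold. Igfbp4, Igfbp5 and Igfbp6 had at most 8 counts in either library and were not measured. Of the 7 measured members, 1 was called higher, against 8.43% of all measured genes, and 1 lower, against 6.24%. With so few members these counts are not read as a share. The median log2 ratio was -0.09 over the 7 measured members and -0.05 over all measured protein-coding genes.

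The promoter windows of the 3 genes with the largest ratios in either direction are shown here because their levels set the libraries apart. Each window holds the 250 bases before the gene's start in RefSeq (GRCm38.p6), read on the gene's strand. They lie at chr1:72824230-72824479 on the plus strand for Igfbp2, chr1:82291440-82291689 on the minus strand for Irs1 and chr5:77408046-77408295 on the minus strand for Igfbp7. Capitals mark GGGCGG on either strand, the GC box bound by Sp1-type factors.
Igfbp2: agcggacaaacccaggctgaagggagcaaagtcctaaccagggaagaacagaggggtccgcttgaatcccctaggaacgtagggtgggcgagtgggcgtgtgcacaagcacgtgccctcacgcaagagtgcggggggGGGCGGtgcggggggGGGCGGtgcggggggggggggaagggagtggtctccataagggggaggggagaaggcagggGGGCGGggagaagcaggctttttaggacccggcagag
Irs1: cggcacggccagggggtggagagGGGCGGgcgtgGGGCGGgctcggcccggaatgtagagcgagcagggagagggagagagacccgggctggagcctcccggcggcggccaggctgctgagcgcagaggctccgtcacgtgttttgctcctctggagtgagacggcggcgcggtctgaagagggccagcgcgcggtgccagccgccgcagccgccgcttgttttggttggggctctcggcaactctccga
Igfbp7: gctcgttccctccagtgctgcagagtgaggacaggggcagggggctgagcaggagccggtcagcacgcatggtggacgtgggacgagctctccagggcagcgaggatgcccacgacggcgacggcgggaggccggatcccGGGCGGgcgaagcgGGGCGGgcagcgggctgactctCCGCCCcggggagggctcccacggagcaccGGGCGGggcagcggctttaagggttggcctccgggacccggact

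GC boxes were found 3 times in the Igfbp2 window shown, 2 times in that of Irs1 and 4 times in that of Igfbp7. Igfbp2 has a second RefSeq window, for a start 907 bases further along the gene, which held 0 and is not printed. RefSeq gave 10 windows for 9 of the members. Of these 10 windows, 5 held GGGCGG, as did 32.7% of all 32851 RefSeq windows. The other two among the 5 were those of Igf1r and Irs2, and the windows without it were the second one of Igfbp2 and those of Igfbp3, Igfbp4, Igfbp5 and Igfbp6. The guanine and cytosine content was 67.2% for the first Igfbp2 window and 56.4% for the second, 72.4% for Irs1 and 74.0% for Igfbp7, against a median of 52.4% over all windows. The letters GTAAACA, the core recognized by FoxO factors, which insulin signalling inactivates, were in 0 of the 10 member windows on either strand and in 3.17% of all windows. TATAAA was present for Igfbp4 and Igfbp6 and in 12.4% of all windows. Such matches describe letters in these windows and not bound sites.

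The hairpin's target sequence was compared with the members' transcripts. Capitals mark the 7 bases that would pair with bases 2 to 8 of a guide strand complementary to the whole target. Where the hairpin is cut in these cells was not measured.
hairpin target: tccagcagaggacTTGCACTa
The whole 21-base target was in 0 of the 10 members' coding transcripts. The letters TTGCACT were also in 0 of the 10 members' annotated 3′ ends after the stop codon. They occurred in those of 12.7% of 11588 measured genes with a coding transcript. With so few members this 0 is not read as a share, and any action of the hairpin on the members was not tested.

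Of the 6 IGF binding protein genes, those with more than a few counts in this line were Igfbp3, Igfbp2 and Igfbp7. Levels of different genes are compared as FPKM, a value scaled for gene length and library size. Igfbp3 (ENSMUSG00000020427, GRCm38 chromosome 11, 7206086 to 7213923), which encodes the main IGF carrier of blood, had 35894 counts in shcircSmad5 and 34490 in empty vector. That was 299 FPKM in shcircSmad5 and 281 FPKM in empty vector, and Igfbp3 ranked 70 and 80 among all genes in those libraries. The log2 ratio was 0.03 (0.01 to 0.05), and it ran from -0.07 after centring every chromosome on its median to 0.10 under the other scalings, so it has no stable sign. Both libraries thus held this carrier's mRNA at nearly the same high level.

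Igfbp2 (ENSMUSG00000039323, chromosome 1, 72824503 to 72852474), whose protein binds both IGFs and carries an integrin-binding motif, rose. It had 9908 counts in shcircSmad5 and 4318 in empty vector. In CPM these are 253 in shcircSmad5 and 112 in empty vector. The ratio was 2.25-fold (2.17 to 2.33), a log2 ratio of 1.17 (1.12 to 1.22), and 948 of the measured genes, 6.97%, had a higher one. None of its exonic bases lies under an exon on the opposite strand. By FPKM, Igfbp2 moved to rank 223 in shcircSmad5, against rank 709 in empty vector.

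Igfbp7 (ENSMUSG00000036256, chromosome 5, 77349240 to 77408041) encodes a secreted relative of the family that binds IGFs weakly and is best known from blood vessel walls and matrix. It had 1608 counts in shcircSmad5 and 2962 in empty vector, which are 41.0 CPM and 77.1 CPM in the same order. The log2 ratio was -0.91, or 1.88-fold lower in shcircSmad5 (1.77 to 2.00). It was therefore not called at 2-fold, and 7.24% of measured genes had a lower ratio. The summed level of vascular and dermal cell markers was also lower in shcircSmad5. The 13 dermal fibroblast and endothelial markers listed, all in the table, summed to 2.91 CPM in shcircSmad5 and 9.47 CPM in empty vector. Only 5 of them were measured, namely Pdgfra, Twist2, Col6a3, Pecam1 and Kdr, and all 5 were called lower. Among measured protein-coding genes 6.38% were called lower, but so few markers are not read as a share. Their counts were low, the highest being 62 in shcircSmad5 and 161 in empty vector, for Pdgfra. For Twist2, 46.5% of the exonic bases lie under an exon on the opposite strand. The fibroblast collagen genes Col1a2 and Col3a1, not measured, went the opposite way to these 5, with 2 counts each in shcircSmad5 and 0 in empty vector. Pdgfrb and Tek, also not measured, went the same way as these 5, with 0 counts in shcircSmad5 and 2 and 5 in empty vector. Counts this low give no firm direction. The defining fibroblast genes Col1a1, Dcn and Lum and the endothelial gene Cdh5 were at 0 in both libraries. Any part of fibroblasts or endothelial cells in the Igfbp7 ratio was not tested. Fewer cells of a type and less RNA per cell cannot be told apart in such bulk samples.

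**Figure D1:**
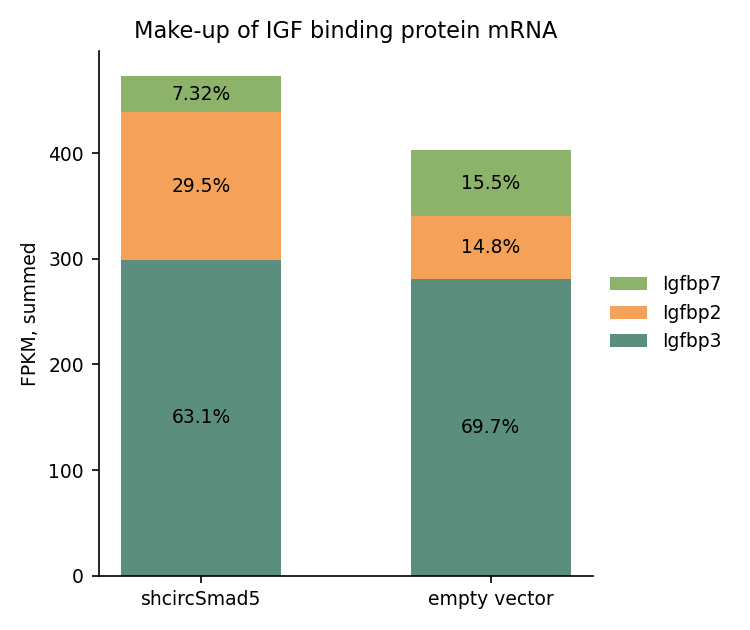
Summed FPKM of the IGF binding protein genes, with shcircSmad5 left of empty vector. Each bar is 1 library, segments are Igfbp3, Igfbp2 and Igfbp7, and labels give their share of the sum. Igfbp2 takes 29.5% in shcircSmad5 and 14.8% in empty vector.

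Igfbp2 took a larger share of the summed binding protein mRNA in shcircSmad5, and Igfbp7 a smaller one. The 6 genes summed to 473 FPKM in shcircSmad5 and 403 FPKM in empty vector. The plot of summed FPKM shows Igfbp3 as the largest part of both, at 63.1% in shcircSmad5 and 69.7% in empty vector. Igfbp7 made up 7.32% in shcircSmad5 and 15.5% in empty vector. A ratio of 2 genes within a library does not depend on how the libraries are scaled. The Igfbp2 to Igfbp7 ratio in FPKM was 4.03 (3.83 to 4.25) in shcircSmad5 and 0.954 (0.910 to 1.00) in empty vector, where the genes were at nearly equal levels. The Igfbp2 to Igfbp3 ratio was 0.468 (0.457 to 0.478) in shcircSmad5 and 0.212 (0.206 to 0.219) in empty vector.

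The other binding protein genes were at the edge of detection. Igfbp4 (ENSMUSG00000017493, chromosome 11, 99041244 to 99054392), whose protein restrains IGFs until a protease cuts it, had 8 counts in shcircSmad5 and 6 in empty vector. These gave 0.0472 FPKM in shcircSmad5 and 0.0346 FPKM in empty vector, a log2 ratio of 0.39 whose interval ran from -1.33 to 2.19. Igfbp5 (ENSMUSG00000026185, chromosome 1, 72857932 to 72874884), a matrix-associated binding protein, had 1 count in shcircSmad5 and 0 in empty vector. A count of 0 is given a limit of 3 counts throughout, which for Igfbp5 in empty vector allows up to 0.0127 FPKM. Igfbp6 (ENSMUSG00000023046, chromosome 15, 102144362 to 102149511), which prefers IGF-2, had 0 counts in both, which allows up to 0.0703 FPKM in shcircSmad5 and 0.0687 FPKM in empty vector. A difference between the libraries in these 3 genes was not detectable at this depth. Igfbp5 lies 5.46 kb beyond Igfbp2 on the opposite strand, with the 3′ ends of the genes facing each other. An abundant gene and one at the edge of detection thus lie side by side.

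**Figure D2:**
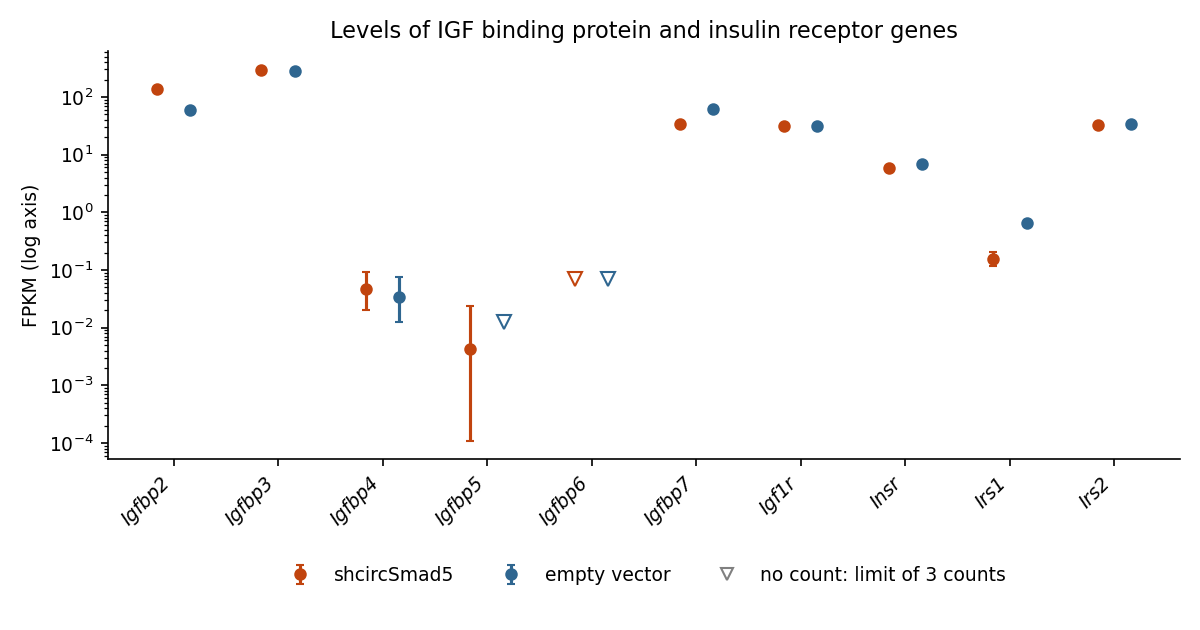
FPKM of each member on a log axis, shcircSmad5 to the left of empty vector for each gene, 1 library each. Bars are exact 95% Poisson counting intervals and open triangles mark the limit that 0 counts allow. Igfbp3 is highest in both libraries, and Igfbp4, Igfbp5 and Igfbp6 lie below 0.1 FPKM.

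Of the receptors, Igf1r was the more abundant in both libraries. Igf1r (ENSMUSG00000005533, chromosome 7, 67952827 to 68233668) had 20550 counts in shcircSmad5 and 21062 in empty vector, at 31.9 FPKM in both. Its log2 ratio was -0.07 (-0.09 to -0.04), with a range of -0.07 to 0.01 over the other scalings and chromosome centring. Insr (ENSMUSG00000005534, chromosome 8, 3122061 to 3279617) had 3113 counts in shcircSmad5 and 3670 in empty vector, or 5.90 FPKM and 6.80 FPKM in the same order. Its log2 ratio was -0.27 (-0.34 to -0.20), which stayed below 0 under every scaling tried, at -0.14 with chromosomes centred. Neither receptor was called. The Igf1r to Insr ratio in FPKM was 5.40 (5.20 to 5.61) in shcircSmad5 and 4.70 (4.54 to 4.87) in empty vector.

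The receptor substrates differed from each other in level and in ratio. Irs1 (ENSMUSG00000055980, chromosome 1, 82233101 to 82291416) fell to 55 counts in shcircSmad5, against 236 in empty vector. In CPM these are 1.40 in shcircSmad5 and 6.14 in empty vector, and in FPKM 0.157 and 0.657 in the same order. The log2 ratio was -2.13 (-2.58 to -1.70), or 4.38-fold lower (3.25 to 5.99), and 261 of the measured genes, 1.92%, had a lower one. Irs2 (ENSMUSG00000038894, chromosome 8, 10984681 to 11008458) had 8001 counts in shcircSmad5 and 8313 in empty vector, at 33.0 FPKM and 33.5 FPKM. Its log2 ratio of -0.09 (-0.13 to -0.04) ran up to 0.05 with chromosomes centred and has no stable sign.

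Irs2 was therefore the substrate gene that supplied nearly all of the substrate mRNA in both lines. Per length, Irs2 exceeded Irs1 210.4-fold (161 to 280) in shcircSmad5 and 50.9-fold (44.8 to 58.2) in empty vector. Irs1 was thus a low gene in both. The marker sum of fibroblast and endothelial cells given above was also lower in shcircSmad5, and any part of such cells in the Irs1 ratio was not tested. A gene model on the opposite strand, Gm9747 (chromosome 1, 82233112 to 82235933), covers 30.9% of the exonic bases of Irs1, at its 3′ end, and whether the counting used strand is not given in the sources used here. Gm9747 was not among the genes in the table and so has no counts of its own, and its part in the Irs1 counts was not tested. The same figure was 7.03% for Igfbp7, which overlaps the end of Polr2b, 2.56% for Irs2 and 0 for the other members. Polr2b, a subunit of RNA polymerase II, had a log2 ratio of -0.46 (-0.51 to -0.40).

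Ordered by FPKM, the members ran Igfbp3, Igfbp2, Igfbp7, Irs2, Igf1r, Insr, Irs1 and Igfbp4 in shcircSmad5. In empty vector Igfbp7 stood before Igfbp2, and the order was otherwise equal. These genes did not differ beyond counting error there, since the Igfbp2 to Igfbp7 ratio of 0.954 given above has an interval that includes 1. Of other neighbours in that order, Igfbp7 and Irs2 did not differ beyond counting error in shcircSmad5, with a ratio of 1.05 (0.996 to 1.11). In empty vector Igfbp7 was 1.86 times Irs2 (1.79 to 1.94). The Irs2 to Igf1r ratio was 1.03 (1.01 to 1.06) in shcircSmad5 and 1.05 (1.02 to 1.08) in empty vector.

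**Figure D3:**
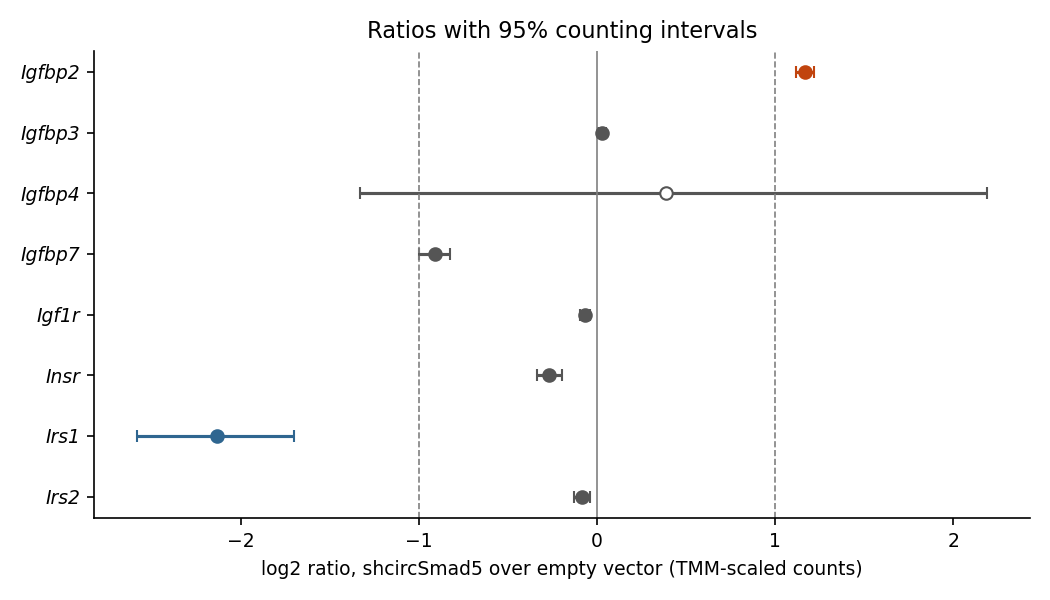
Log2 ratio of shcircSmad5 over empty vector for the 8 members with counts in both libraries, with exact 95% counting intervals. Dashed lines mark 2-fold. Igfbp2 lies beyond the upper line, Irs1 beyond the lower one, Igfbp7 just inside it, and the open point is Igfbp4 with 8 counts in shcircSmad5 and 6 in empty vector.

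The rest of the pathway was read from 87 further genes in 9 lists sorted by function, of which 82 were in the table and 70 were measured. Of these, 2 were called higher (2.86%) and 4 lower (5.71%), beside 4.61% and 6.38% of protein-coding genes. Shares this near to the background say nothing particular about the pathway. The median log2 ratio of the 70 genes was -0.13, and 64 of them were not called.

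Ligand mRNA was scarce. Igf1 had 0 counts in both libraries, which allows up to 0.00789 FPKM in shcircSmad5 and 0.00772 FPKM in empty vector. Igf2 had 9 counts in shcircSmad5 and 0 in empty vector. The insulin gene Ins2 had 115 counts in shcircSmad5 and 117 in empty vector, and its near-copy Ins1 had 11 and 3, values that are uncertain where reads were shared between the copies. Igf2r, whose product takes up IGF-2 and delivers it to lysosomes, was abundant, with 41.9 FPKM in shcircSmad5 and 44.8 FPKM in empty vector and a log2 ratio of -0.16 (-0.19 to -0.12). Insrr, an orphan relative of the receptors, had 1 count in shcircSmad5 and 2 in empty vector. Igfals, the partner of Igfbp3 in the circulating complex, had 43 counts in shcircSmad5 and 25 in empty vector and was not called.

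Of the 5 genes in the table for proteases that cut IGF binding proteins and their inhibitors, only Htra1 was measured. Htra1, a secreted serine protease gene, had 183 FPKM in shcircSmad5 and 80.3 FPKM in empty vector and was 2.18-fold higher (2.13 to 2.24). The interval of its ratio overlapped that of Igfbp2. Of the measured genes, 1001 (7.36%) had a higher ratio than Htra1 and 948 (6.97%) a higher one than Igfbp2. With 1 ratio per gene, the overlap is not read as a link between these genes. Pappa, the protease gene for Igfbp4, had 0 counts in shcircSmad5 and 6 in empty vector, and Pappa2 had 12 in both. Htra3 had 3 counts in shcircSmad5 and 8 in empty vector, and the inhibitor gene Stc1 had 0 in both.

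Of 16 measured adaptor and receptor regulator genes, 1 was higher, 1 was lower and 14 were not called. Socs2, a feedback inhibitor of growth hormone and IGF signalling, rose, with 3004 counts in shcircSmad5 and 809 in empty vector, 3.64-fold higher (3.36 to 3.94). Grb14, an adaptor that binds the insulin receptor and blocks its kinase, fell, with 130 counts in shcircSmad5 and 394 in empty vector, 3.09-fold lower (2.53 to 3.80). Of 12 genes for PI3 kinase subunits and opposing phosphatases, 2 were lower. Pik3cd, a catalytic subunit best known from leukocytes, had 59 counts in shcircSmad5 and 164 in empty vector, 2.84-fold lower (2.10 to 3.89). The lipid phosphatase gene Inpp4b had 10 and 38 counts in the same order, 3.88-fold lower with a wide interval (1.90 to 8.73).

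All 20 Akt and mTOR genes were measured and none was called. Their log2 ratios ran from -0.59 to 0.72. Those with the most counts, which also grow with gene length, were Rps6, Gsk3b and Akt1, at -0.14, -0.03 and -0.07. Rps6 encodes a ribosomal protein with many processed copies, and its value is uncertain where reads were shared. Of 15 measured FoxO factor and target genes, only Klf15, a transcription factor of fasting metabolism, was called. It had 98 counts in shcircSmad5 and 272 in empty vector and was 2.83-fold lower (2.24 to 3.61). The 3 IGF-2 mRNA-binding protein genes Igf2bp1, Igf2bp2 and Igf2bp3 had log2 ratios of 0.14, 0.16 and 0.00.

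**Figure D4:**
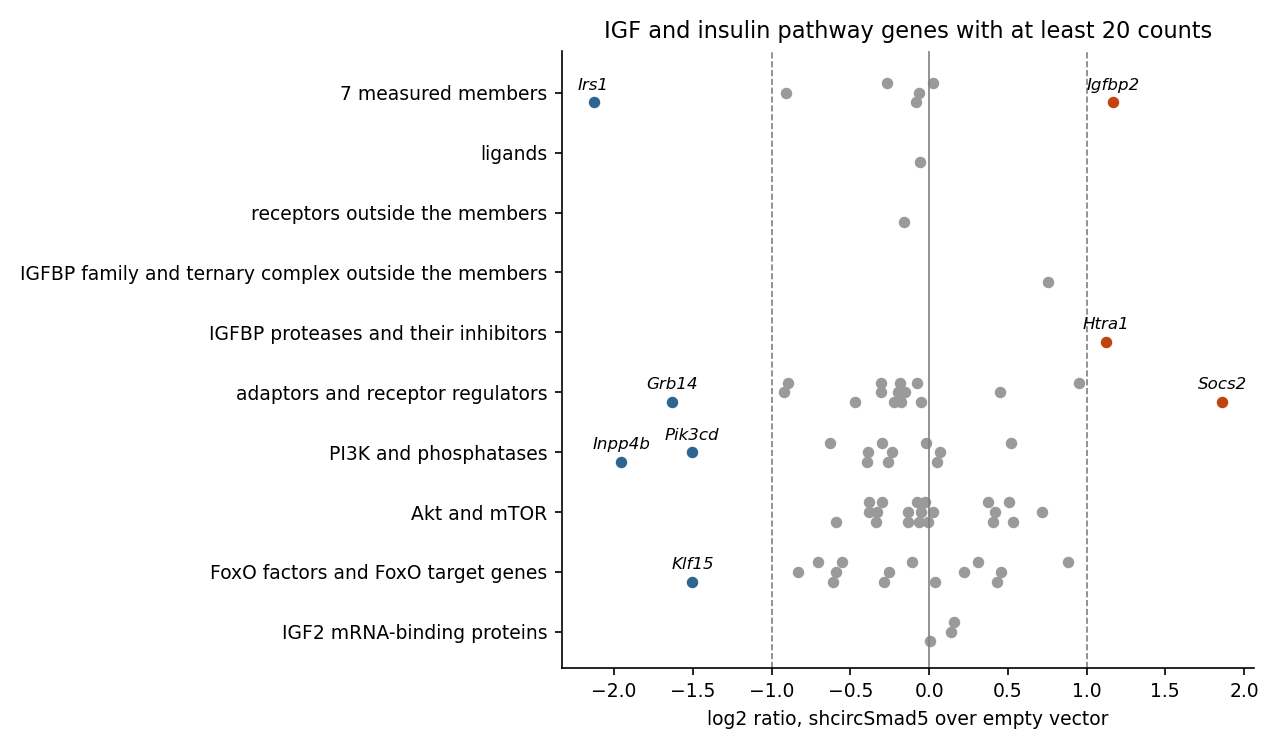
Log2 ratio of shcircSmad5 over empty vector for each measured gene, the 7 measured members in the top row and the 9 lists under it. Each point is a gene, colour and name mark those called, and dashed lines mark 2-fold. The 2 called higher and 4 called lower in the lists are spread over 4 of them.

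The chromosomal surroundings of the members were read to see whether neighbouring genes shared their ratios. As background, IGF binding protein genes lie beside tensin genes, which encode adaptors of integrin adhesions. Tns1, the next measured gene above Igfbp2, had 43.9 CPM in shcircSmad5 and 24.8 CPM in empty vector, a log2 ratio of 0.83 (0.71 to 0.94). It lies 1058 kb away and was not called. On the other side of Igfbp2, 110.7 kb away, the ribosomal protein gene Rpl37a had a log2 ratio of 0.29. Tns3, the next measured gene above Igfbp3 but 1218 kb away, had a log2 ratio of -0.08 (-0.13 to -0.04). Tns4 next to Igfbp4 had one of 0.29 (0.26 to 0.32). Tns2, near Igfbp6 and named after its value was seen, was at -0.27 (-0.38 to -0.16). Tns4 was strongly expressed, at 96.6 FPKM in shcircSmad5 and 75.5 FPKM in empty vector, only 11.3 kb from the nearly silent Igfbp4.

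Irs1 and its nearest measured neighbours had ratios of opposite sign. Rhbdd1, a rhomboid protease gene 25.0 kb from it, had a log2 ratio of 0.85 (0.77 to 0.93), while the other side held no measured gene for 1905 kb. There the unnamed gene model Gm37262 had 61 counts in shcircSmad5 and 39 in empty vector, a log2 ratio of 0.62 whose interval of 0.01 to 1.23 barely excluded 0. Ramp3, a receptor partner protein gene 528.6 kb from Igfbp3, was called higher at 1.60 (1.17 to 2.06), while Igfbp3 itself was level. Arrdc4, 503.3 kb from Igf1r, was at -0.84 (-0.93 to -0.75). The nearest measured genes to Irs2, Myo16 at 349.9 kb and Col4a1 at 190 kb, were at 0.03 and -0.03. Csad and Spryd3 beside Igfbp6 were at 0.93 and -0.11, and Top2a beside Igfbp4 at 0.31. Ttc23, 189.9 kb from Igf1r, was at -0.14 and Arhgef18, 113.4 kb from Insr, at 0.09. The nearest measured gene above Igfbp7 was the pseudogene Hmgn2-ps1, 6715 kb away and called higher at 1.61 on few counts. The chromosomes as a whole were near level for Irs1 and Igfbp2, since the median log2 ratio was 0.02 over 852 measured genes of chromosome 1. It was -0.13 on chromosome 5, which holds Igfbp7, and -0.13 on chromosome 8, which holds Insr and Irs2.

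**Figure D5:**
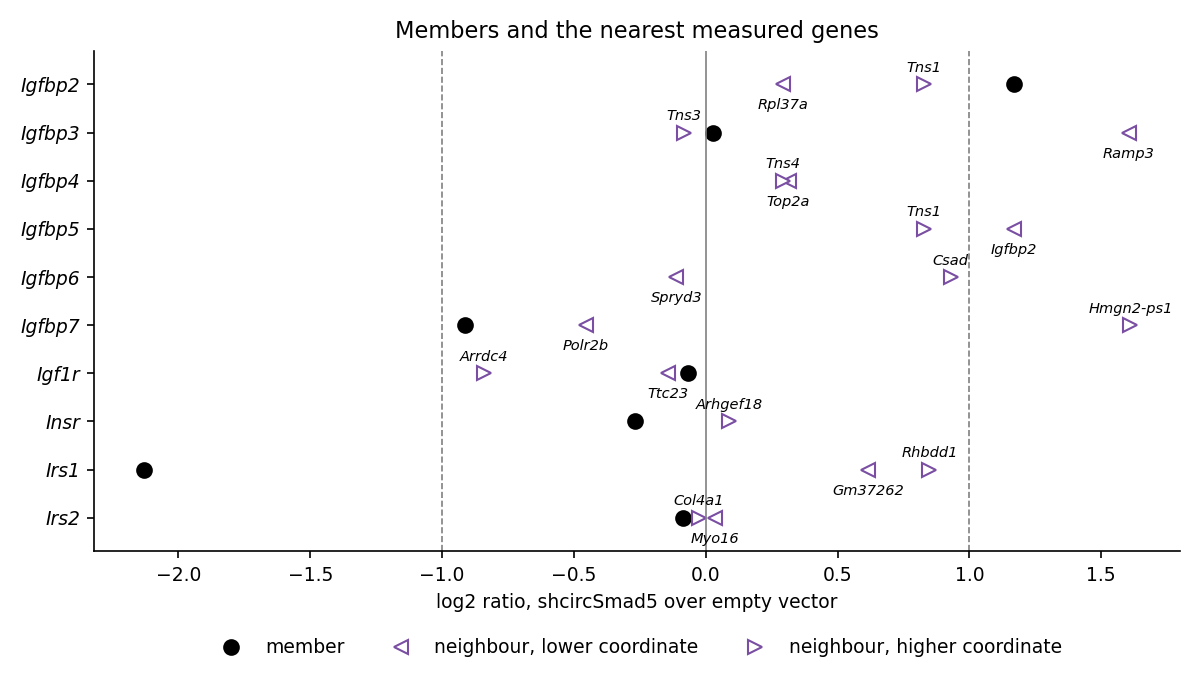
Log2 ratio of shcircSmad5 over empty vector for each measured member (filled circles) and for the nearest measured gene on either side (open triangles, pointing to the lower or the higher coordinate). Irs1 lies at -2.13 and its neighbours at 0.62, a gene 1905 kb away with few counts, and at 0.85, and Igfbp2 at 1.17 lies above neighbours at 0.29 and 0.83.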

How the data were processed

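Gene-level RNA sequencing values of 1 shcircSmad5 and 1 empty vector library were used. Per the labels' protocols, 3 µg of total RNA was depleted of ribosomal RNA before a strand-keeping preparation. The submitters' processing notes name HISAT2, HTSeq 0.13.5, GRCm38 and GRCh38 without roles. The annotation, strand setting and handling of multiply mapped reads were not among what is given in the sources used here. The deposited counts are whole numbers per gene, not normalized, per the file headers. The deposited FPKM values gave whole gene lengths, within 0.001 bases, for 100% of values when set against the counts, and 98.0% of lengths equalled the GENCODE M21 exon union.

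TMM factors came from edgeR 4.0.16 (R 4.3.3). Ratios have 95% intervals by the exact Clopper-Pearson method on each gene's counts in both libraries, and those of levels exact Poisson intervals (scipy 1.17.1). PCR copies were not removed by molecular identifiers, so both cover counting error alone. A count of 0 was given a limit of 3 counts. No test was possible on single libraries. Positions and transcript ends came from GENCODE M21 (GRCm38), which held 22319 gene IDs, and promoters from RefSeq.

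Named are all members and their nearest measured neighbours, Smad5, all ligand, receptor and binding protein genes, and per list up to 4 called genes or the 3 with the most counts. Some cell markers, Pappa, Pappa2, Htra3, Stc1 and Tns2 were named after their values were seen. The members and lists were chosen with earlier results of these data known. Other scalings (DESeq2 1.42.0 size factors among them), log2 FPKM with a pseudocount of 0.1, chromosome centring, count minimums and fold limits were tried. Igfbp1, Igfbpl1, Stc2, Shc2 and Enpp1 were on the lists but had no values under these symbols, so they were not analysed here.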

Additional observations from a re-analysis of the deposited data

How the results depend on the processing

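Igfbp2 was called higher and Irs1 lower under TMM and under 11 of the 12 alternatives, which were other scalings, chromosome centring, FPKM, count minimums of 10, 100 and none, and a 1.5-fold limit. At 3-fold, 0 members were higher and Irs1 alone was lower. At 1.5-fold, 2 members were lower, Igfbp7 and Irs1. The Igfbp2 log2 ratio ran from 1.14 to 1.25, that of Igfbp7 from -0.91 to -0.78 and that of Irs1 from -2.16 to -1.56, the last with 0.1 added to the FPKM, which understates the change of a low gene. The median log2 ratio over the members was -0.0225 with total counts and with FPKM, -0.0204 with upper quartile scaling, -0.0083 with totals without the top 20 genes and mitochondrial genes, and -0.0361 with TMM over protein-coding genes. Among all genes, 439 were higher and 463 lower with at least 100 counts, a minimum that fewer genes reach. Of all 13596 measured genes, 1892 were higher and 1753 lower at 1.5-fold, and 591 higher and 422 lower at 3-fold. Of the 70 measured other pathway genes, 6 were higher and 12 lower at 1.5-fold, and 1 higher and 2 lower at 3-fold. These counts are not read as a result about the pathway. The scalings moved the median of all measured genes between -0.02 and 0.06. No paired analysis was possible because each group has 1 library. For Igfbp4, Igfbp5 and Igfbp6 the depth limits what can be read, and for all genes the spread between cultures was not measured.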
